A study of Mus musculus with 6 samples.

Results

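The genes described here are 39 genes of glucose breakdown and of the response to low oxygen, given as a list of names that covers the pathway from glucose uptake to pyruvate and known targets of hypoxia. All 39 were among the 54232 gene identifiers counted, and all 39 had enough reads to be tested, among 16752 genes tested. They comprise 2 glucose transporters, 15 glycolytic enzymes, 4 kinases that set glycolytic flux, 2 hypoxia-inducible factor (HIF) alpha subunits, 2 prolyl hydroxylases of HIF and 14 other HIF target genes. RNA was sequenced from 6 mouse tumors, 3 of genotype CdGAP wt/wt (libraries wt1, wt2 and wt3) and 3 of genotype CdGAP fx/fx (fx1, fx2 and fx3). Both groups were NIC+. The NIC transgene expresses activated ErbB2/Neu, a receptor tyrosine kinase oncogene, and Cre recombinase together in mammary epithelium under the MMTV promoter, so the wt/wt tumors carry the oncogene and Cre as well, and other cells of the tumor are not targeted by Cre. CdGAP is the GTPase-activating protein encoded by Arhgap31, and fx/fx denotes 2 copies of its floxed allele. The labels give no age and do not say whether each tumor came from a separate animal, so the p-values measure only the spread between these libraries.

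Glycolysis converts glucose to pyruvate in the cytosol: transporters let glucose in, hexokinase traps it as a phosphate, phosphofructokinase commits it to breakdown, and the lower enzymes recover ATP and NADH. The HIF transcription factors pair an oxygen-sensitive alpha subunit with a constant partner. With oxygen present, prolyl hydroxylases mark the alpha subunit for destruction through VHL, and without it HIF binds hypoxia response elements, whose core often reads ACGTG, and raises glycolytic enzymes, acid exporters and its own hydroxylases. ErbB2/Neu tumors of the breast are known for high glucose uptake.

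These core letters were looked for on both strands of the RefSeq promoters (build GRCm38.p6, 250 bases before the start to 50 after, the first listed start of each gene). Of the 39 genes 34 had a promoter entry, and 18 of these 34 (52.9%) held ACGTG or its reverse complement CACGT, beside 24.8% of the 11595 promoters of tested genes and 19.7% of all 27025 promoters. Before the start alone, 16 of 34 (47.1%) held it, beside 21% of the promoters of tested genes. A palindromic CACGTG was counted as 2 overlapping matches. The following windows of 60 bases are from genes whose levels did not overlap between genotypes (Pgam1, Pfkfb3, Hif1a, Egln1 and Egln3) and from HIF targets and a transporter whose levels were highest in wt2 and fx2 (Slc2a1, Bnip3, P4ha2, Ddit4, Car9 and Ankrd37). Each reads 5′ to 3′ on the gene's own strand, and capitals mark the matches.
Pgam1: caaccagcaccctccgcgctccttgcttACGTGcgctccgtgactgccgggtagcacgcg
Pfkfb3: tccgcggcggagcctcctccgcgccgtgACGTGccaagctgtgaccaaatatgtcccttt
Hif1a: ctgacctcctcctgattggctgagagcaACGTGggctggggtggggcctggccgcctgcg
Egln1: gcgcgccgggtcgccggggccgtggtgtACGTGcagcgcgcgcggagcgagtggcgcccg
Egln3: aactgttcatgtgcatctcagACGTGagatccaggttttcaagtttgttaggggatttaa
Slc2a1: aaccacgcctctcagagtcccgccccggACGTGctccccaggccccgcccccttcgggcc
Bnip3: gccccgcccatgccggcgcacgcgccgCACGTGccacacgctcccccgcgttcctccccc
P4ha2: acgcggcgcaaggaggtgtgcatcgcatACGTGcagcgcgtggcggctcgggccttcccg
Ddit4: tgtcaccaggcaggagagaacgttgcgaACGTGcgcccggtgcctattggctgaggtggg
Car9: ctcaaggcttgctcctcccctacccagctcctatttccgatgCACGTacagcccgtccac
Ankrd37: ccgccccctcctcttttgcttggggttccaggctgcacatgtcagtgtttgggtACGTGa
On the plus strand lie Pgam1 (chr19:41911729-41911788), Hif1a (chr12:73907769-73907828), Slc2a1 (chr4:119108681-119108740), P4ha2 (chr11:54100818-54100877) and Car9 (chr4:43506966-43507025). On the minus strand lie Pfkfb3 (chr2:11553958-11554017), Egln1 (chr8:124949291-124949350), Egln3 (chr12:54204065-54204124), Bnip3 (chr7:138909582-138909641), Ddit4 (chr10:59951926-59951985) and Ankrd37 (chr8:45999851-45999910). The RefSeq start of Hif1a lies inside the span that the count annotation gives the gene (chr12:73901375-73947530). The same holds for Ankrd37 (chr8:45996902-46005707) and P4ha2 (chr11:54100095-54131665). It also holds, nearer to the 5′ edge of the span, for Slc2a1, Car9, Pfkfb3, Egln1, Bnip3 and Ddit4. A match describes letters only. The promoters of Gpi1, Pfkp, Pkm and Adm held none, and Gapdh held 1, after the start. Among other genes highest in wt2 and fx2, Mxi1, Eno1, Eno2, Tpi1 and Pdk1 held none, and Ero1l and Ndrg1 had no promoter entry. Pgk1 and P4ha1, highest in the same libraries, held matches that are not printed.

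The libraries held 36732137 to 53606276 counts, and 3 counts, which bound from above a level listed at 0 as far as counting error goes, correspond to 0.0560 to 0.0817 counts per 1000000 counts (CPM). Arhgap31 itself stood at 664, 433 and 550 CPM in wt/wt and at 156, 44.1 and 116 CPM in fx/fx, with no overlap, a 5.22-fold lower mean and an exact 2-sided permutation p = 0.1, the smallest that 20 orderings of 6 libraries allow. All 8 luminal epithelial markers were measured, at a summed 4032 to 4808 CPM in wt/wt and 3966 to 5460 CPM in fx/fx. In bulk tumors fewer cells of a type and less RNA per cell cannot be told apart. After Benjamini-Hochberg adjustment edgeR's quasi-likelihood test called 0 of 16752 genes, 2381 had an unadjusted p under 0.05, DESeq2 called 831 genes (4.96%) and limma-voom called 0.

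Of the 39 genes, 32 had a higher mean in fx/fx (log2 fold change above 0; 49.6% of all genes tested), and their median log2 fold change was 0.38, beside -0.00 over all genes tested. With edgeR 0 of the 39 were called at an adjusted p under 0.05 (background 0%), the smallest adjusted p being 0.153 for Pfkp. At an unadjusted p under 0.05 edgeR held 9 genes, all higher in fx/fx (background 8.18% higher and 6.04% lower), namely Gpi1, Pfkp, Aldoc, Gapdh, Pgam1, Pfkfb3, Hif1a, Egln1 and Adm. DESeq2 called 6 higher and 0 lower (background 3.01% and 1.95%), namely Gpi1, Pfkp, Gapdh, Pgam1, Pfkfb3 and Adm, and limma-voom called 0. In a single data set simulated from these libraries, with 200 changed genes, the share of false calls was 35.9% with DESeq2. It was 9.52% with edgeR, from too few calls to judge edgeR by. The DESeq2 calls and adjusted p-values given here are therefore likely to be too lenient. On GRCm38 these 6 lie at chr7:34201330-34230336 (Gpi1, ENSMUSG00000036427), chr13:6579768-6648777 (Pfkp, ENSMUSG00000021196), chr6:125161715-125166467 (Gapdh), chr19:41911871-41918664 (Pgam1), chr2:11471433-11554077 (Pfkfb3) and chr7:110627661-110629820 (Adm). The wt/wt and fx/fx libraries did not overlap for 10 genes, all higher in fx/fx (background 9.74% higher and 9.93% lower).

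**Figure D1:**
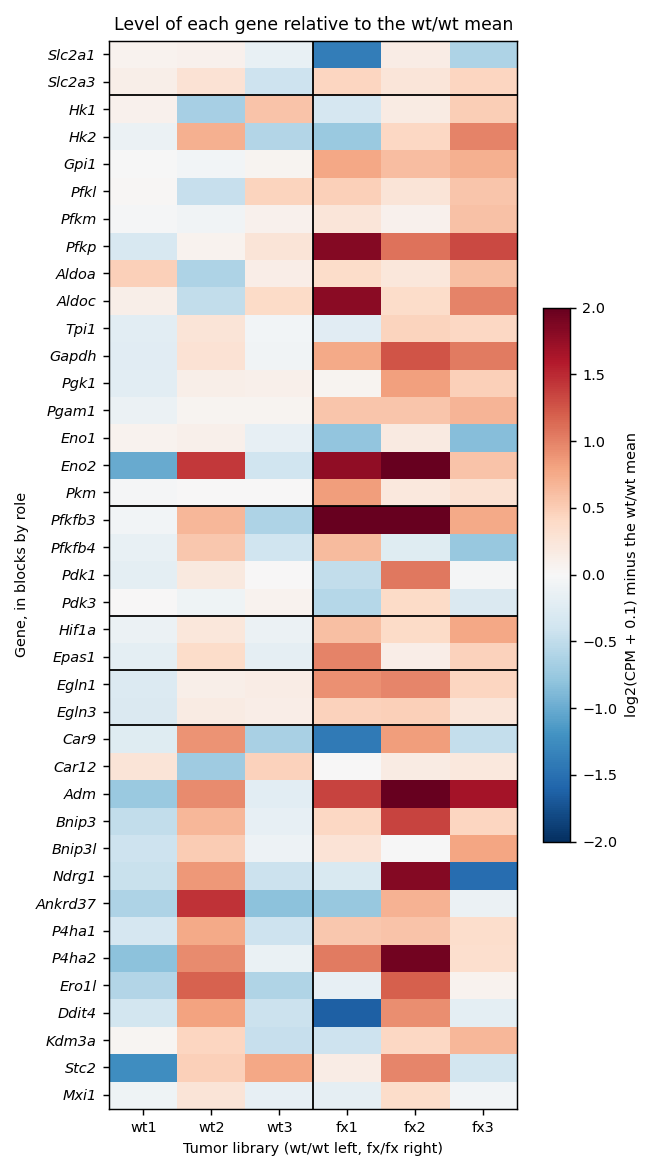
Level of each of the 39 genes (vertical axis, in blocks by role from transporters at the top to other HIF targets at the bottom) in each tumor library (horizontal axis), as log2(CPM + 0.1) minus the wt/wt mean. Colors end at -2 and 2; the enzyme block is mostly red in all 3 fx/fx libraries, whereas the HIF target block at the bottom is red mainly in wt2 and fx2.

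The glucose transporters showed no common direction. Slc2a1, which encodes the basal glucose transporter GLUT1, was measured at 202.5, 204 and 173 CPM in wt/wt and 73.7, 213 and 126 CPM in fx/fx. The fx/fx libraries fx1 and fx3 lay below all wt/wt libraries and fx2 lay above them, giving a log2 fold change of -0.49 ± 0.35 (SE, edgeR adjusted p = 0.577). Slc2a3, encoding the high-affinity transporter GLUT3, was rare, at 0.798, 0.916 and 0.524 CPM in wt/wt and 1.02, 0.884 and 1.02 CPM in fx/fx, with overlap. It was the lowest of the 39 per exon length, at a mean of 0.119 CPM per kb of exon.

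Nearly all glycolytic enzymes had higher means in fx/fx. Of 15 enzymes 14 had a log2 fold change above 0, with a median of 0.47 and a range from -0.41 (Eno1) to 1.63 (Eno2). Averaged over the 15, log2 CPM relative to the wt/wt mean was -0.10 in wt1, 0.05 in wt2 and 0.05 in wt3, and 0.50, 0.63 and 0.59 in fx1, fx2 and fx3. The spread within each genotype (SD 0.09 and 0.07, n = 3) was small beside this difference of 0.57, and no fx/fx library reached the wt/wt range. DESeq2 called 4 of the 15 higher (Gpi1, Pfkp, Gapdh and Pgam1; background 3.01%), and these and Pkm were the 5 whose genotypes did not overlap (background 9.74%).

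**Figure D2:**
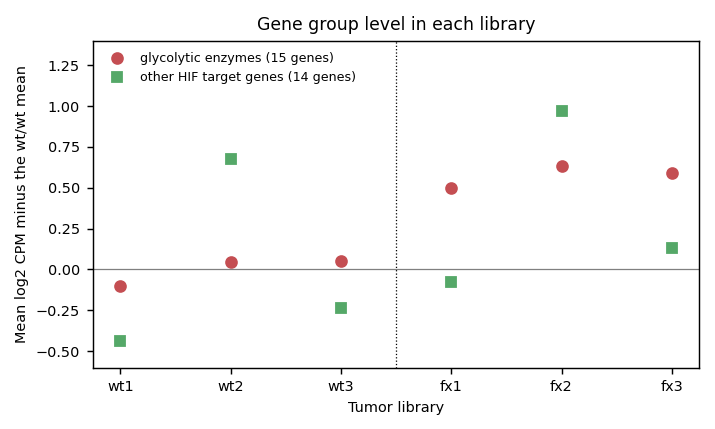
Mean log2 CPM relative to the wt/wt mean (vertical axis) of the 15 glycolytic enzymes (circles) and the 14 other HIF target genes (squares) in each tumor library (horizontal axis). The enzyme circles lie between -0.10 and 0.05 in wt/wt and between 0.50 and 0.63 in fx/fx, while the HIF target squares peak in wt2 (0.68) and fx2 (0.97).

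The summed levels of several marker lists did not overlap between genotypes either, and their part in the enzyme levels was not tested. The summed level of 9 fibroblast markers was 284 to 503 CPM in wt/wt and 793 to 1455 CPM in fx/fx, with 7 of 9 not overlapping. The 6 pericyte markers summed to 219 to 321 and 359 to 417 CPM (4 of 6 not overlapping), and the 8 adipocyte markers to 17.4 to 55.8 and 74.1 to 224 CPM (5 of 8). The 7 erythroid markers summed to 119 to 297 and 536 to 628 CPM (5 of 7), and the 8 basal markers to 22.3 to 27.4 and 33.0 to 62.5 CPM (3 of 8). Most of the basal sum was Acta2, at 14.8 to 20.9 and 22.1 to 48.5 CPM. The basal markers Krt14, Krt17, Myh11, Oxtr and Trp63 overlapped between genotypes. The sums of these lists and all their non-overlapping markers were higher in fx/fx (background 9.74% of genes tested), and no marker was at 0 in all 6 libraries. Pdgfra among the fibroblast markers and Krt17 among the basal ones had lower means in fx/fx (log2 fold change -0.16 and -0.30). The erythroid count of non-overlapping markers includes Hba-a2, which was not tested and was at most 0.0803 CPM.

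Pfkp, the platelet-type phosphofructokinase, had the smallest adjusted p of the set. It was measured at 160, 210 and 240 CPM in wt/wt and 718, 424 and 503 CPM in fx/fx. All fx/fx libraries lay above all wt/wt libraries, fx1 highest, with a log2 fold change of 1.43 ± 0.27 (SE; 2.70-fold; adjusted p = 0.153 by edgeR and DESeq2 adjusted p = 0.00027). The DESeq2 call held without each library in turn (highest adjusted p = 0.014, without wt1). Its sister genes Pfkl (liver type, 653 ± 200 and 856 ± 88.8 CPM, SD, n = 3) and Pfkm (muscle type, 92.7 ± 4.99 and 115 ± 20.8 CPM) overlapped between genotypes. Per length, Pfkp made up 8.82%, 14.1% and 10.2% of the phosphofructokinase level in wt/wt and 24.5%, 18.1% and 17.2% in fx/fx, with no overlap. The lengths used were those of all annotated exons, 13401 bases for Pfkp, 6675 for Pfkl and 3340 for Pfkm. The size of the Pfkp share therefore depends on them. Pfkl remained the main form per length, at 68.7% ± 5.89 in wt/wt and 63.1% ± 2.40 in fx/fx (SD, n = 3).

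Gpi1, glucose-6-phosphate isomerase, which makes the substrate of phosphofructokinase, stood at 588, 570 and 613 CPM in wt/wt and 1004, 900 and 964 CPM in fx/fx. Both groups were tight and well apart, at a log2 fold change of 0.70 ± 0.19 (SE; 1.62-fold; adjusted p = 0.210 by edgeR and DESeq2 adjusted p = 0.0022, and 0.095 without wt1). Gapdh, which forms NADH at the first step after the sugar is split and is often taken as a constant reference gene, stood at 432, 620 and 480 CPM in wt/wt and 850, 1208 and 1032 CPM in fx/fx. Its groups did not overlap, and wt2 and fx2 were the highest of each (log2 fold change 1.01 ± 0.24, SE; 2.02-fold; adjusted p = 0.185 by edgeR and DESeq2 adjusted p = 0.0058). The DESeq2 adjusted p of Gapdh was 0.099 without wt1 and 0.064 without wt3. Pgam1, phosphoglycerate mutase, stood at 50.3, 56.5 and 56.4 CPM in wt/wt and 79.5, 80.1 and 86.8 CPM in fx/fx. These groups too were tight and apart (log2 fold change 0.59 ± 0.15, SE; 1.51-fold; adjusted p = 0.195 by edgeR and DESeq2 adjusted p = 0.021). For Pgam1 the DESeq2 adjusted p was 0.263 without wt1, 0.113 without wt3 and 0.092 without fx3. Gapdh, Pgam1, Tpi1, Pgk1 and Pkm have many processed pseudogene copies, and reads that align to several copies may be lost, so their levels are less certain.

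Pkm, the muscle-type pyruvate kinase that ends the pathway, was the second most abundant of the 39 per length (mean 357 CPM per kb, after Aldoa at 1026 CPM per kb). It stood at 1467, 1501 and 1506 CPM in wt/wt and 2672, 1722 and 1837 CPM in fx/fx. The wt/wt libraries were almost equal and fx1 alone was far above them (log2 fold change 0.48 ± 0.26, SE, edgeR adjusted p = 0.450). Of its exon bases, 15.3% are shared with another gene on the same strand, as are 10.2% of those of Pfkm and 2.51% of those of Hif1a. The Pkm splice forms PKM1 and PKM2 cannot be told apart in counts per gene.

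Aldoc, an aldolase known best from brain, stood at 527, 347 and 635 CPM in wt/wt and 1712, 626 and 971 CPM in fx/fx. Here fx1 was far above all others, fx3 was above every wt/wt library, and fx2 lay just under wt3 (log2 fold change 1.13 ± 0.41, SE; adjusted p = 0.282 by edgeR and DESeq2 adjusted p = 0.104). Without fx2 DESeq2 gave an adjusted p of 0.0097. Aldoa, the main aldolase, overlapped between genotypes at 2640 ± 945 and 3335 ± 446 CPM (SD, n = 3). Aldoc made up 14.9% ± 2.74 of aldolase message per length in wt/wt and 22.2% ± 8.67 in fx/fx (SD, n = 3), with 32.1% in fx1 and overlap between the groups.

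**Figure D3:**
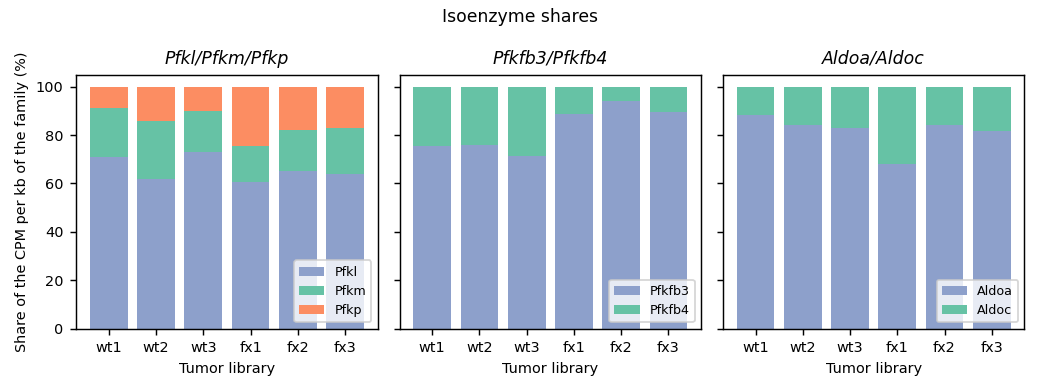
Share of each isoenzyme in the summed CPM per kb of its family (vertical axis, percent) in each tumor library (horizontal axis) for phosphofructokinase (Pfkl, Pfkm, Pfkp), the PFKFB kinases (Pfkfb3, Pfkfb4) and aldolase (Aldoa, Aldoc). Pfkp is 8.82% to 14.1% in wt/wt and 17.2% to 24.5% in fx/fx, Pfkfb3 is 71.3% to 75.8% in wt/wt and 88.7% to 94.2% in fx/fx, and Aldoc stands out only in fx1.

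The remaining enzymes overlapped between genotypes. Hk1, the constitutive hexokinase, stood at 875 ± 353 and 911 ± 253 CPM in wt/wt and fx/fx, and Hk2, the inducible one, at 41.7 ± 19.5 and 50.9 ± 27.1 CPM (SD, n = 3). Hk2 ranged from 25.7 to 63.4 CPM in wt/wt and from 23.3 to 77.4 CPM in fx/fx, so each genotype covered most of the range of the other. Tpi1, triose phosphate isomerase, stood at 543 ± 92.9 and 635 ± 151 CPM, and Pgk1, the first ATP-forming enzyme, at 143 ± 18.0 and 198 ± 51.7 CPM (SD, n = 3). Eno1, the main enolase, was the only enzyme with a lower mean in fx/fx, at 698, 717 and 592 CPM in wt/wt and 388, 760 and 368 CPM in fx/fx. As for Slc2a1, fx1 and fx3 lay below all wt/wt libraries and fx2 above them (log2 fold change -0.41 ± 0.31, SE, edgeR adjusted p = 0.609). Eno1b, a near-identical copy, was counted at 25.1% to 25.8% of Eno1 in every library, so reads of the pair may be split between them. Eno2, the neuronal enolase, was rare, at 0.753, 4.47 and 1.20 CPM in wt/wt and 5.80, 11.7 and 2.45 CPM in fx/fx, with overlap through wt2 and a DESeq2 adjusted p of 0.223, which was 0.0054 without wt2.

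Among the kinases, Pfkfb3 had the largest log2 fold change of all 39 genes. It makes fructose 2,6-bisphosphate, the strongest activator of phosphofructokinase, and stood at 10.9, 18.0 and 7.31 CPM in wt/wt and 48.1, 53.4 and 19.1 CPM in fx/fx. The groups did not overlap, but fx3 was only just above wt2 (log2 fold change 1.74 ± 0.46, SE; 3.33-fold; adjusted p = 0.210 by edgeR and DESeq2 adjusted p = 0.014). The DESeq2 call was lost without wt1 (adjusted p = 0.107), wt3 (0.097), fx1 (0.118) or fx2 (0.066). Its sister Pfkfb4 stood at 2.63 ± 0.95 and 2.51 ± 1.30 CPM (SD, n = 3), so that Pfkfb3 made up 74.2% ± 2.499 of the pair per length in wt/wt and 90.8% ± 3.00 in fx/fx (SD, n = 3), with no overlap. Pdk1 and Pdk3, which switch off pyruvate dehydrogenase and so keep pyruvate out of mitochondria, overlapped between genotypes. Pdk1 was 59.2 to 77.2 CPM in wt/wt and 48.3 to 140.5 CPM in fx/fx, and Pdk3 was 14.3 to 16.0 and 10.1 to 19.7 CPM. In both the highest library was fx2.

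**Figure D4:**
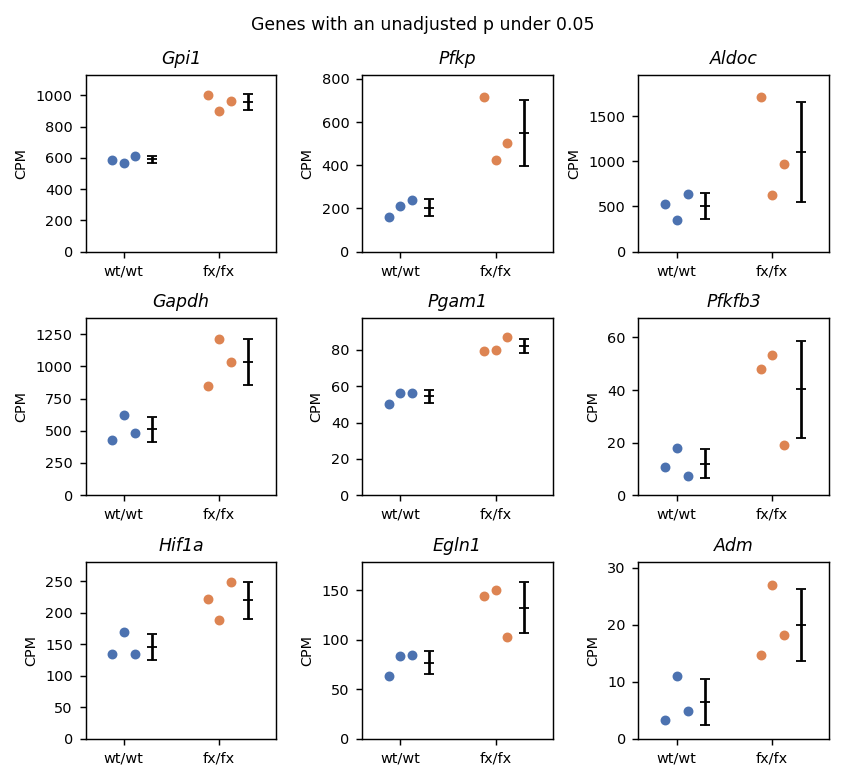
CPM (vertical axes, from 0) of the 9 genes with an unadjusted edgeR p under 0.05, by genotype (horizontal axes); each point is 1 tumor library and the bar beside it is the mean ± SD of 3. The genotypes do not overlap for any of the genes except Aldoc, and Gpi1 and Pgam1 have the narrowest spread.

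The HIF alpha subunits and their hydroxylases had higher means in fx/fx in all 4 cases. Hif1a, the HIF-1 alpha subunit, which is controlled mainly at the protein level, stood at 134, 170 and 134 CPM in wt/wt and 221, 189 and 249 CPM in fx/fx. The groups did not overlap, fx2 being nearest to wt2 (log2 fold change 0.59 ± 0.19, SE, edgeR adjusted p = 0.246). For Hif1a DESeq2 gave an adjusted p of 0.118, with calls without wt2 (0.047) or fx2 (0.035). Epas1, which encodes HIF-2 alpha and is also abundant in endothelium, stood at 56.5, 83.2 and 56.8 CPM in wt/wt and 128, 70.6 and 88.7 CPM in fx/fx. Its genotypes overlapped, since fx2 was below wt2. The 8 endothelial markers summed to 103 to 129 CPM in wt/wt and 122 to 242 CPM in fx/fx (highest in fx1). Of these 8 markers 2 did not overlap, both higher in fx/fx (background 9.74%), and none was at 0 throughout. The part of endothelial RNA in Epas1 was not tested.

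Egln1, the main oxygen-sensing hydroxylase PHD2 and itself a HIF target, stood at 63.4, 83.2 and 84.5 CPM in wt/wt and 144, 150 and 103 CPM in fx/fx. The groups did not overlap (log2 fold change 0.78 ± 0.21, SE; 1.72-fold; adjusted p = 0.212 by edgeR and DESeq2 adjusted p = 0.061, and 0.0072 without fx3). Egln3, the hydroxylase PHD3, was the third most abundant of the 39 per length at a mean of 285 CPM per kb, and stood at 534, 731 and 712 CPM in wt/wt and 895, 908 and 770 CPM in fx/fx. These groups did not overlap either, although wt2 and fx3 were close (log2 fold change 0.38 ± 0.22, SE, edgeR adjusted p = 0.475). Per length Egln1 made up 7.98% ± 0.18 of the pair in wt/wt and 10.2% ± 1.03 in fx/fx (SD, n = 3).

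The other HIF targets differed more between libraries of one genotype than between genotypes. Of the 14 genes 11 had a log2 fold change above 0, with a median of 0.24 and a range from -0.33 (Ankrd37) to 1.64 (Adm), and 1, Adm, was called higher by DESeq2 (background 3.01%). For 10 of the 14 (71.4%) wt2 was the highest wt/wt library and fx2 the highest fx/fx library, beside 12.3% of all genes tested and 5 of the 15 enzymes. This pair of libraries was not set before the levels were seen, so its shares are a description only. The library wt2 led wt/wt for 12 of the 14 (38.8% of all genes tested) and fx2 led fx/fx for 11 (33.3% of all genes tested). Their median level in wt2 was 2.25 times the mean of wt1 and wt3, and in fx2 2.01 times the mean of fx1 and fx3. Averaged over the 14, log2 CPM relative to the wt/wt mean was -0.44 in wt1, 0.68 in wt2 and -0.24 in wt3, against -0.08 in fx1, 0.97 in fx2 and 0.13 in fx3. The SD within a genotype (0.60 in wt/wt and 0.55 in fx/fx, n = 3) exceeded the difference of 0.34 between genotypes, and wt2 lay above fx1 and fx3.

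Ero1l, an oxidase that forms disulfide bonds in the endoplasmic reticulum, showed this plainly, at 112, 379 and 111 CPM in wt/wt and 149, 386 and 177 CPM in fx/fx. Ndrg1, a stress-induced differentiation gene, stood at 42.7, 106 and 43.1 CPM in wt/wt and 46.8, 208 and 20.1 CPM in fx/fx. Ddit4, an inhibitor of the growth kinase mTORC1, stood at 57.7, 130 and 55.6 CPM in wt/wt and 24.0, 143 and 65.6 CPM in fx/fx. In all 3 genes wt2 and fx2 lay far above every other library. Their log2 fold changes between genotypes were 0.24 ± 0.58, 0.52 ± 0.83 and -0.07 ± 0.63 (SE) for Ero1l, Ndrg1 and Ddit4, all smaller than their errors.

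Car9, the cell-surface carbonic anhydrase that exports acid, stood at 17.6, 39 and 13.3 CPM in wt/wt and 7.79, 37.3 and 14.9 CPM in fx/fx. Ankrd37, a small ankyrin protein gene induced by HIF-1, stood at 3.52, 14.99 and 3.04 CPM in wt/wt and 3.20, 8.87 and 5.05 CPM in fx/fx. Bnip3, which marks mitochondria for autophagy, stood at 26.5, 59.3 and 33.6 CPM in wt/wt and 50.03, 96.3 and 50.6 CPM in fx/fx. In these 3 again wt2 and fx2 led their genotype, and the genotypes overlapped. P4ha2, a collagen prolyl hydroxylase subunit, did the same at a low level, with 1.00, 3.66 and 1.68 CPM in wt/wt and 3.88, 7.28 and 2.35 CPM in fx/fx. The same held for Mxi1, a MYC antagonist, within a narrow range of 120 to 162 and 120 to 174 CPM.

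Adm, which encodes the vasodilator peptide adrenomedullin, was the only one of the 14 whose genotypes did not overlap (background 9.74% higher). It stood at 3.37, 11.0 and 4.91 CPM in wt/wt and 14.7, 27.1 and 18.3 CPM in fx/fx. The libraries wt2 and fx2 were again highest, yet every fx/fx library lay above wt2 (log2 fold change 1.64 ± 0.47, SE; 3.11-fold; adjusted p = 0.220 by edgeR and DESeq2 adjusted p = 0.022). The DESeq2 adjusted p was 0.133 without wt1, 0.138 without wt3, 0.096 without fx2 and 0.052 without fx3, and 6.0e-06 without wt2. P4ha1, the main collagen prolyl hydroxylase subunit, stood at 39.4, 84.1 and 37.5 CPM in wt/wt and 72.7, 74.0 and 63.8 CPM in fx/fx. Only wt2 broke the separation of P4ha1, for which DESeq2 gave an adjusted p of 0.714 with all libraries and 0.0042 without wt2.

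The remaining HIF targets did not follow wt2 and fx2 in full. Bnip3l, a relative of Bnip3, was 112, 212 and 138 CPM in wt/wt and 180, 147 and 257 CPM in fx/fx, with fx2 lowest of its group. Car12, a carbonic anhydrase of luminal epithelium, was lowest in wt2 (445 CPM, against 866 and 1002 CPM in wt1 and wt3) and even across fx/fx (730 to 840 CPM). Stc2, a secreted stress glycoprotein, was 3.92 to 16.1 and 7.23 to 18.7 CPM, and Kdm3a, a histone demethylase, was 78.0 to 144 and 80.5 to 171 CPM.

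Markers of other cells also differed between libraries of one genotype. Fibroblast markers summed to 384, 503 and 284 CPM across wt/wt replicates 1 to 3 and to 934, 1455 and 793 CPM across those of fx/fx, highest in wt2 and fx2. Skeletal muscle markers did so as well, at 17.6, 21.6 and 6.88 CPM and 3.65, 50.8 and 3.66 CPM (9 markers, of which 5 were tested). Adipocyte markers were highest in fx2 (224 CPM) and lowest in wt2 (17.4 CPM). The part of these cells in the HIF target levels was not tested. Library size was lowest in fx2, and the mitochondrial share of counts was 1.81% in wt2 and 1.86% in fx2, within or just below the 1.85% to 2.93% of the others.

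The chromosome on which a gene lies moved with some results. The median of expressed protein-coding genes on chromosome 4, relative to the wt/wt mean, was -0.70, -0.12 and -0.82 (log2) in fx1, fx2 and fx3. Slc2a1, Eno1 and Car9 lie there, and these 3 were lower in fx1 and fx3 than in wt/wt on average, at -1.39 and -0.61 for Slc2a1, -0.78 and -0.86 for Eno1, and -1.42 and -0.48 for Car9. Genes within 5 Mb of Eno1 had medians of -0.59, -0.71 and -0.80 in fx1, fx2 and fx3, while Eno1 itself stood at 0.19 in fx2. Without fx2 DESeq2 called both Slc2a1 (log2 fold change -0.97, adjusted p = 0.024) and Eno1 (-0.84, adjusted p = 0.0016) lower. The part of the chromosome in these levels was not tested.

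Aldoc and, in fx1, Pfkl, P4ha1, P4ha2 and Stc2 lay on the other side of the wt/wt mean from their neighbours. Genes within 5 Mb of Aldoc on chromosome 11 had medians of -0.64, -0.01 and -0.83 (log2) in fx1, fx2 and fx3, whereas Aldoc stood at 1.81, 0.36 and 0.99. In fx1, P4ha2 and Stc2 on the same chromosome stood at 1.06 and 0.16, beside -0.65 and -0.59 for their neighbours. On chromosome 10, neighbours of Pfkl stood at -0.63 in fx1 and Pfkl itself at 0.48, and P4ha1 stood at 0.54 beside -0.63. Ddit4 and Hk1, also on chromosome 10, were low in fx1 like their neighbours, at -1.64 beside -0.61 for Ddit4 and -0.34 beside -0.60 for Hk1. Neighbours of Pfkfb3 on chromosome 2 stood at 0.02, 0.55 and 0.19 in fx1, fx2 and fx3, beside 2.09, 2.24 and 0.76 for Pfkfb3. Those of Pdk1, also on chromosome 2, stood at 0.04, 0.50 and 0.24, beside -0.49, 1.05 and -0.03 for Pdk1. On chromosome 14, neighbours of Ero1l stood at 0.29 in wt2, where Ero1l was 379 CPM against 112 and 111 CPM in wt1 and wt3. In fx2, where Ero1l was also high, its neighbours stood at -0.12 beside 1.20 for Ero1l itself. Neighbours of Bnip3l stood at 0.37 in wt2, the wt/wt library in which it was highest. In fx1, fx2 and fx3 they stood at 0.02, -0.12 and 0.58, beside 0.28, -0.01 and 0.79 for Bnip3l itself. The part of the neighbouring genes' shifts in these levels was not tested.

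**Figure D5:**
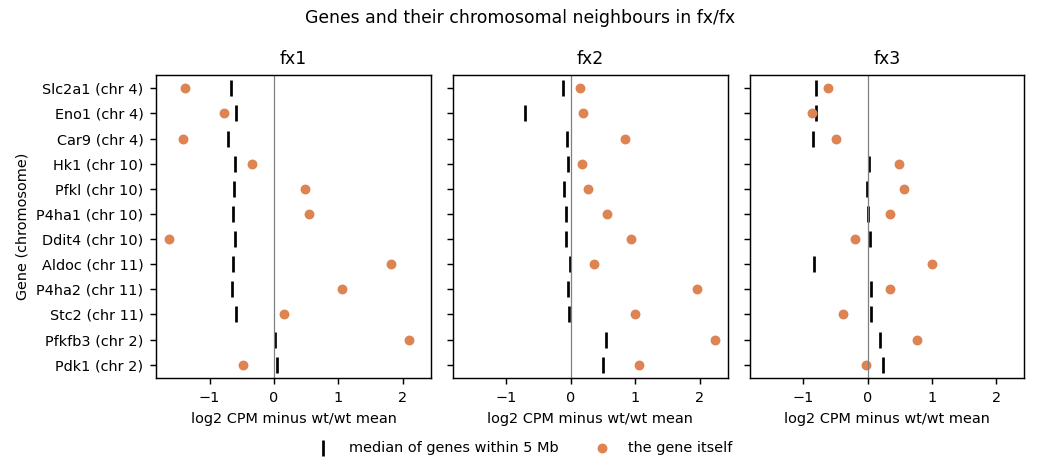
Log2 CPM relative to the wt/wt mean (horizontal axes) in fx1, fx2 and fx3 of 12 genes on chromosomes 4, 10, 11 and 2 (vertical axis; circles) and the median of expressed genes within 5 Mb of each (bars). Slc2a1 and Eno1 lie left of 0 with their neighbours in fx1 and fx3, whereas Aldoc lies right of 0 there while its neighbours lie left.

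A second list held 62 other genes of glycolysis and HIF biology, of which 55 were tested. Of the 55, 37 had a log2 fold change above 0, with a median of 0.28, edgeR called 0, and 8 higher and 1 lower had an unadjusted p under 0.05 (background 8.18% and 6.04%). DESeq2 called 3 higher and 0 lower (background 3.01% and 1.95%), and limma-voom called 0. The genotypes did not overlap for 11 higher and 1 lower (background 9.74% and 9.93%). For 21 of the 55 (38.2%) wt2 and fx2 led their genotype, beside 12.3% of all genes tested. Here too the pair of libraries was not set before the levels were seen.

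Ldhb, the lactate dehydrogenase subunit that favors lactate use, stood at 114, 74.9 and 128 CPM in wt/wt and 293, 173 and 465 CPM in fx/fx. All fx/fx libraries lay above wt/wt (log2 fold change 1.55 ± 0.38, SE; 2.93-fold; adjusted p = 0.185 by edgeR and DESeq2 adjusted p = 0.0070, and 0.062 without wt2). Ldha, its lactate-forming partner, chosen after its values were seen, stood at 2049, 1587 and 1694 CPM in wt/wt and 827, 1799 and 1473 CPM in fx/fx, with overlap. Per length Ldhb made up 10.5%, 9.05% and 13.8% of the pair in wt/wt and 42.8%, 16.9% and 40.0% in fx/fx.

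Fbp1, fructose-1,6-bisphosphatase, which runs the phosphofructokinase step backwards, was low throughout, at 0.576, 0.715 and 0.677 CPM in wt/wt and 1.37, 2.06 and 1.89 CPM in fx/fx. The groups did not overlap (log2 fold change 1.43 ± 0.36, SE; adjusted p = 0.193 by edgeR and DESeq2 adjusted p = 0.015, and 0.075 to 0.125 without wt1, wt3 or fx3). Tmem45a, a membrane protein gene induced by hypoxia, stood at 0.244, 0.335 and 0.240 CPM in wt/wt and 1.07, 1.42 and 0.655 CPM in fx/fx. These groups did not overlap either (log2 fold change 1.93 ± 0.45, SE; adjusted p = 0.185 by edgeR and DESeq2 adjusted p = 0.022, and 0.088 to 0.150 without wt1, wt3, fx1 or fx2). Vegfa, the HIF-induced angiogenic factor, also chosen after its values were seen, stood at 69.0, 170 and 106 CPM in wt/wt and 186, 238 and 81.0 CPM in fx/fx, with wt2 and fx2 highest and overlap between genotypes.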

How the data were processed

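RNA of 6 tumors (3 per genotype) was sequenced. The deposited values are raw counts (read pairs assigned to each gene), made by the authors with featureCounts 1.6.0 on GRCm38 (Ensembl 93, reverse-stranded), per the file headers; the submitters' processing notes name STAR 2.5.1b and featureCounts 1.4.6. Gene lengths are also as deposited, per the file headers. They cover all annotated exons of a gene, so shares per length are not shares of transcripts. The headers show no setting that would count multi-mapped reads, so genes with near-identical copies are less certain. GENCODE M21 gave 54165 of 54232 identifiers a symbol; of the Aldoa identifiers the one with more counts was used. The genotype test was that of edgeR 4.0.16, run in R 4.3.3 (filterByExpr, TMM, quasi-likelihood test with robust=TRUE, 2-sided, Benjamini-Hochberg over all genes tested, threshold 0.05). In a single simulated data set the share of false calls was 9.52% with edgeR, from few calls, and 35.9% with DESeq2. Alternatives were DESeq2 1.42.0, limma 3.58.1 (voom), other scalings, no filter, a replicate block and leaving out each library. CPM uses TMM-scaled library sizes; log2 levels of single libraries use a prior count of 2. The SE of a log2 fold change is its size over the square root of edgeR's F. Neighbour medians cover protein-coding genes whose log2 CPM averaged at least 3. Named were all 39 genes, Arhgap31, and pathway genes called by edgeR or DESeq2; Ldha and Vegfa were added after their values were seen. The members and lists were chosen with earlier results of these data known.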

Additional observations from a re-analysis of the deposited data

How the results depend on the processing

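With 3 libraries per genotype only large, even differences can pass adjustment over 16752 genes, and counts per gene show neither splice forms nor which cells hold the RNA. The edgeR count of 0 called among the 39 genes became 1 without the filter on low counts (Pfkp) and 6 with DESeq2, and stayed 0 with the other scalings, robust=FALSE and limma-voom. Among the other pathway genes DESeq2 called 3 in place of 0, and over all genes 831 in place of 0, with 38 without the filter. Leaving out 1 library at a time, with DESeq2 refits added after the data were seen, the range over both tools was 0 to 9 for the 39 genes, 0 to 5 for the pathway genes and 0 to 1738 for all genes. The fit with the replicate block called 0 of the 39 genes, 0 pathway genes and 0 of all genes. Deviations of same-numbered libraries from their group means correlated at -0.08, -0.09 and -0.01 over 10225 genes. Those of differently numbered libraries correlated at -0.25 to 0.30. With 3 libraries per genotype these values cannot show whether the numbers pair the tumors.

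The log2 fold change changed sign when 1 library was left out for 13 genes: Hk1 (-0.22 to 0.37), Hk2 (-0.14 to 0.72), Pfkfb4 (-0.57 to 0.26), Pdk1 (-0.26 to 0.61), Pdk3 (-0.44 to 0.081), Car9 (-1.05 to 0.37), Car12 (-0.24 to 0.27), Ndrg1 (-0.94 to 1.09), Ankrd37 (-0.81 to 0.79), Ero1l (-0.31 to 1.08), Ddit4 (-0.88 to 0.45), Stc2 (-0.32 to 0.51) and Mxi1 (-0.14 to 0.19). Ndrg1 was also -0.016 with limma-voom. Leaving out Slc2a3, below 1 CPM, moved the mean log2 difference of the glucose transporters from -0.11 to -0.62. Without division by gene length, the fx/fx minus wt/wt difference in share was -0.479 percentage points for Slc2a1 and 0.479 for Slc2a3, 13.8 for Pfkp (8.91 per length), and 12.2 for Pfkfb3 and -12.2 for Pfkfb4 (16.6 and -16.6 per length). These 3 shifts follow from the construction of the alternatives.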
